A study of Mus musculus with 24 samples.

Results

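Livers of hypothyroid male mice with a tyrosine-to-phenylalanine change in the thyroid hormone receptor TRβ (Y147F) were compared with wild-type (WT) livers, both 6 h after an injection of PBS without hormone. The comparison rests on 6 of the study's 24 microarrays: the 3 titled Y147F_PBS and the 3 titled WT_PBS. The other arrays come from a TRβ knockout (KO), from a mutant carrying the changes E125G and G126S in TRβ (GS), and from all 4 genotypes 6 h after T3, the active hormone, again with 3 arrays per group. Comparing genotypes without hormone asks which liver transcripts the receptor's state sets before any hormone is given.

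WT, KO and GS arrays belong to a first submission, and Y147F arrays to a later one. The first-submission mice had a C57BL/6J background, were 8 to 9 weeks old, and drank 0.02% methimazole, 0.5% perchlorate and 0.3% saccharin for 3 weeks with an iodine-poor diet. The Y147F mice had a C57BL/6JCrl background, were 10 to 11 weeks old, and received 0.05% methimazole and 1% potassium perchlorate over 3 weeks of a like diet, with no saccharin named. The T3 dose was the same: the first submission gives 20 µg for each 100 g of mouse and the later one 200 ng for each g. Genotype therefore goes with submission, substrain, age and antithyroid dosing in every Y147F comparison, and these cannot be told apart. Nothing beyond a different number in each title says that the 3 arrays of a group came from separate animals, so p-values measure the spread between these samples. In whole liver, fewer cells of a type and less RNA per cell cannot be told apart either.

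TRβ is the main thyroid hormone receptor of the liver. Without hormone it sits on its response elements together with corepressors and holds positively regulated genes low, and hormone turns it into an activator. Hormone-bound TRβ can also signal through PI3K, a kinase at the cell membrane, and the mutated tyrosine is the residue by which it is known to engage that pathway. The GS changes lie in the DNA-binding domain.

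Values are log2 intensities from Affymetrix arrays, and differences are on the log2 scale ± SE with n = 3 arrays per group. The test was limma on all 24 arrays, and a gene is called where its adjusted p is under 0.05. The number of arrays limits their precision: the median 95% confidence interval of a gene extended 0.20 to each side. Array medians lay between 5.88 and 6.00. The 10 hepatocyte markers tested averaged 14.28 to 14.31 in WT and 14.29 to 14.33 in Y147F arrays, which fits the labelled tissue. Y147F PBS replicate 3 stood apart from its group: its value on principal component 3 was -13.86, against -0.86 and 1.38 in the other Y147F PBS arrays. On that component Y147F T3 replicate 3 was also low, at -15.01. Y147F PBS replicate 3 also had the highest 3′ minus 5′ difference of all 24 arrays in 4 of 4 control transcripts, for example 0.80 for beta-actin against 0.49 to 0.60 in the other 23. Its part in the results was not tested beyond leaving it out.

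Few genes differed between Y147F and WT without hormone. Of 14161 genes tested, 12 were called (0.0847%), 6 higher (0.0424%) and 6 lower (0.0424%) in Y147F. At an unadjusted p under 0.05 there were 1956 genes (13.8%), 1034 higher (7.3%) and 922 lower (6.51%). The median difference over all genes was 0.01. In all 12 called genes the 3 Y147F arrays lay apart from the 3 WT arrays, which held for 17.7% of all genes tested. Only 2 of the 12, Erdr1 and Papss1, differed 2-fold or more. The count depends on the fit: 1 gene was called with only the 6 arrays compared, and 0 with the 12 WT and Y147F arrays, where 1705 genes had an unadjusted p under 0.05. Without Y147F PBS replicate 3 it was 3. Of the 12 called genes, 7 differed by less than 1.5-fold.

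Papss1, which encodes the enzyme that makes the sulfate donor PAPS, was at 9.46, 9.39 and 9.61 in the WT arrays and at 8.30, 8.42 and 8.50 in the Y147F arrays. The groups did not overlap, and the difference was -1.08 ± 0.15 (adjusted p = 0.00987), which is 2.12-fold lower. Papss1 was also lower than in KO (-1.11 ± 0.15) and in GS (-1.07 ± 0.15). It kept its call under 16 of 19 other settings and lost it without WT PBS replicate 3 (adjusted p = 0.0679), without Y147F PBS replicate 2 (0.0768) and with only the 12 WT and Y147F arrays (0.0913). The other 11 genes were less stable and kept their call under 5 (Snhg6) to 11 (Erdr1) of the 19 settings. Cyb5d1, Hcar2 and Lce3b lost it whichever of the 6 arrays was left out, with adjusted p from 0.0504 to 0.143.

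Erdr1, a gene of the pseudoautosomal region first described for effects on red cell differentiation, was at 11.21, 11.95 and 12.22 in WT and at 10.58, 9.36 and 8.82 in Y147F. Its difference was -2.21 ± 0.37 (adjusted p = 0.0421), with a wide spread inside both groups. The probe set is of a type that can also bind other transcripts, and a second, dimmer Erdr1 probe set differed by -0.19. KO arrays had an Erdr1 mean of 10.24 and GS arrays of 11.50, so its level also varied among first-submission genotypes.

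The other 4 genes lower in Y147F had smaller differences, each at an adjusted p of 0.0421. Hcar2, the receptor for niacin and the ketone body beta-hydroxybutyrate, was at 7.30, 7.20 and 7.39 in WT and at 6.24, 6.67 and 6.48 in Y147F (-0.83 ± 0.15). Its mean in KO was 6.18 and in GS 6.04, close to the Y147F level rather than to WT. Snhg6, a non-coding host gene of a small nucleolar RNA, was at 10.74, 11.17 and 10.87 in WT and at 9.85, 10.27 and 10.24 in Y147F (-0.81 ± 0.15). Its mean was 10.40 in KO and 10.51 in GS, also below the WT mean of 10.93. Lce3b, an epidermal envelope gene, and the unnamed clone 4930463O16Rik were each lower by less than 0.5 (both -0.41), and Lce3b is again read by a probe set that can bind other transcripts.

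The 6 genes higher in Y147F, each at an adjusted p of 0.0421, included a kinase, a signalling factor and metabolic genes. Stat5b, the transcription factor that carries growth hormone signals in liver, was at 8.72, 8.80 and 8.70 in WT and at 9.04, 9.07 and 9.45 in Y147F (0.45 ± 0.08). Pdp2, a phosphatase that activates pyruvate dehydrogenase, was at 7.51, 7.48 and 7.54 in WT and at 7.85, 7.97 and 8.07 in Y147F (0.45 ± 0.08). Sbk1, a serine/threonine kinase, was at 9.84, 10.31 and 10.21 in WT and at 11.33, 10.95 and 10.63 in Y147F (0.85 ± 0.16). For each of the 3 genes the lowest Y147F array lay above the highest WT array. Slc2a9, a urate transporter, differed by 0.49 ± 0.09, Fn3k, which removes sugar adducts from proteins, by 0.47 ± 0.09, and Cyb5d1 by 0.29 ± 0.06. Several of these genes also had higher means in KO and GS without hormone than in WT. Stat5b had 9.02 in KO and 9.15 in GS against 8.74 in WT, and Pdp2 8.63 and 8.61 against 7.51. Sbk1 had 10.66 and 10.99 against 10.12, and Fn3k 8.85 and 8.96 against 8.55. Cyb5d1 lay close to WT (8.705 and 8.76 against 8.69). Slc2a9 was lower in KO and higher in GS (9.57 and 10.05 against 9.88). These comparisons share the WT arrays.

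A second probe set of the same gene gave 0.03 for Stat5b, -0.03 for Slc2a9 and -0.13 for Fn3k, each dimmer than the one tested, and so did not show the difference. For Sbk1 the second probe set gave 0.88, as large as the first. Pdp2, Papss1, Hcar2, Snhg6 and Cyb5d1 had 1 probe set each.

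Hormone moves several of these genes in WT, in a contrast that shares the WT PBS arrays. With T3, which changed 10.6% of all genes there, Pdp2 rose by 1.88 ± 0.08 (adjusted p = 2.37e-12), Sbk1 by 1.47 ± 0.16 (1.45e-06), Stat5b by 1.45 ± 0.08 (1.93e-10) and Fn3k by 0.73 ± 0.09 (4.34e-06). Hcar2 fell by 1.24 on the log2 scale (5.33e-06). Cyb5d1 rose by 0.20 ± 0.06 (0.023) and Erdr1 fell by 1.32 on the log2 scale (0.0223), which makes 7 of the 12 genes. For Stat5b, Pdp2, Sbk1, Fn3k and Hcar2 the Y147F mean without hormone lay between the WT means without and with T3: Pdp2 had means of 7.51 in WT, 7.97 in Y147F and 9.39 in WT with T3. For Erdr1 and Cyb5d1 it lay beyond the WT mean with T3, at 9.58 against 10.47 for Erdr1 and at 8.98 against 8.88 for Cyb5d1. The 12 genes were chosen for their difference from the same WT PBS arrays. Nothing is therefore read from the count of 7 or from where the Y147F means lie.

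**Figure D1:**
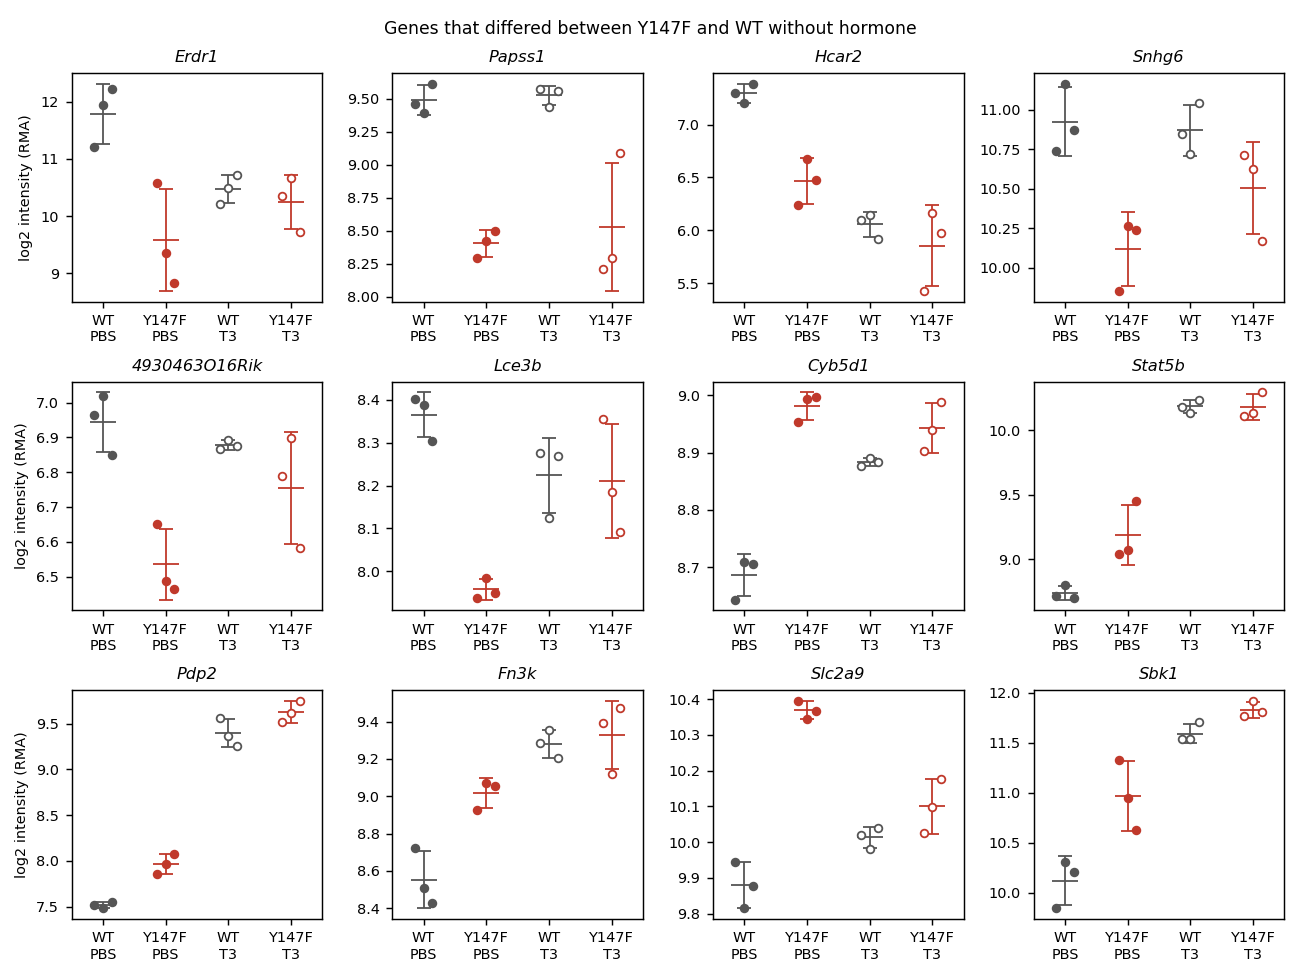
Log2 intensity (y axis) of the 12 genes called between Y147F and WT without hormone, in the WT and Y147F arrays with PBS (filled) and with T3 (open). Points are arrays, and bars show the group mean ± SD. In every panel the PBS groups do not overlap, while with T3 Papss1 keeps a gap and Stat5b (10.14 to 10.24 in WT, 10.11 to 10.30 in Y147F) does not.

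The same genotype comparison after T3 uses 6 other arrays with the same difference in submission. There 1 gene was called (0.00706%, and 8.43% had an unadjusted p under 0.05), Papss1, at 9.57, 9.44 and 9.56 in WT and at 8.21, 8.29 and 9.09 in Y147F (-0.996 ± 0.15, adjusted p = 0.033). The Y147F array at 9.09 is replicate 3 of the T3 group; without it the difference was -1.28. Leaving out any other of the 6 arrays ended that call, as did fitting only these 6 arrays (adjusted p = 0.5) or only the 12 WT and Y147F arrays (0.31). After T3, Erdr1 differed by -0.22 ± 0.37, Hcar2 by -0.20 ± 0.15, Snhg6 by -0.37 ± 0.15, Sbk1 by 0.24 ± 0.16, Pdp2 by 0.23 ± 0.08 and Stat5b by -0.01 ± 0.08, none of them called.

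Whether the genotype difference itself changed with hormone was tested by the difference of the 2 differences. It was called for 0 genes (0%), with 756 at an unadjusted p under 0.05 (5.34%). Among the 12 called genes, 9 had an unadjusted p under 0.05 for it, each with an adjusted p of 0.738 or more. These genes were chosen for their difference without hormone, which enters this value, so nothing is read from that count. The largest was Erdr1 (1.98 ± 0.52), followed in size by Hcar2 (0.63 ± 0.21) and Sbk1 (-0.61 ± 0.23), while Papss1 had 0.09 ± 0.22. Over all 14161 genes the differences without hormone and after T3, which share no array, had the same sign in 61.1%, with a Pearson correlation across genes of 0.29. Genes are not independent replicates, and both differences also hold the difference in submission.

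**Figure D2:**
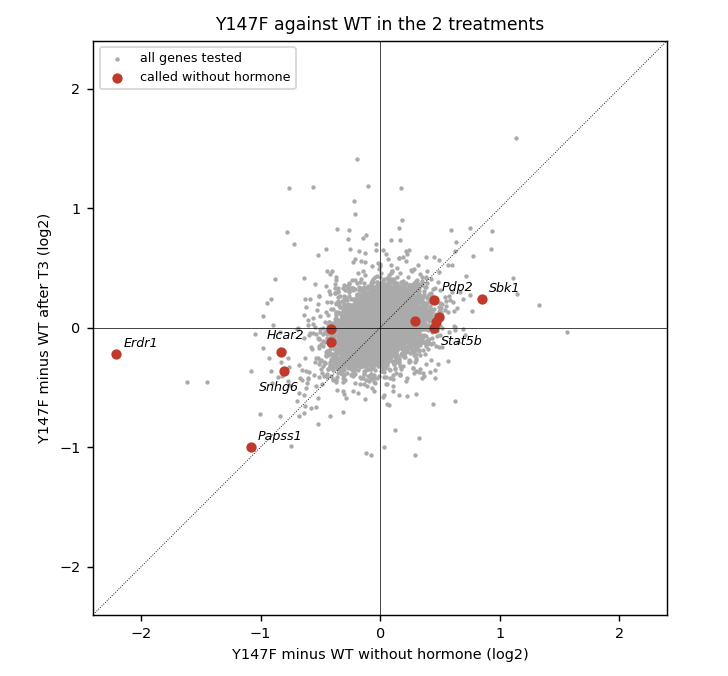
Difference between Y147F and WT (log2) without hormone on the x axis and after T3 on the y axis, for 14161 genes (grey) and the 12 genes called without hormone (red). The dotted line marks equal differences. Papss1 lies close to it at -1.08 and -0.996, and Erdr1 lies far from it at -2.21 and -0.22.

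The mutated gene itself was not called. Thrb, which encodes TRβ and is read by 1 probe set, was at 6.64, 7.01 and 6.75 in WT and at 7.02, 6.94 and 6.17 in Y147F (-0.09 ± 0.17, 95% interval -0.45 to 0.27). The change of 1 amino acid cannot be read from an expression array, and with a mean of 6.99 in KO the same probe set reads no deletion there, so it does not check the labels. Thra, the gene of the other thyroid hormone receptor, differed by 0.15 ± 0.12, and its 3 probe sets gave 0.14 to 0.22. Of 16 receptors, partners and coregulators tested, Thrb and Thra among them, 0 were called and 0 had an unadjusted p under 0.05. The 20 tested genes next to Thrb on its chromosome, 10 on each side, differed by -0.34 to 0.57, with 0 called. Of these 3 had an unadjusted p under 0.05, near the 13.8% of all genes that did.

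No known hepatic T3 target was called between Y147F and WT without hormone. The median difference of the 18 tested was 0.05 against 0.01 over all genes. Of these, 1 had an unadjusted p under 0.05 (13.8% of all genes did). That gene was Gpd2, the mitochondrial glycerol-3-phosphate dehydrogenase. It was at 8.37, 8.41 and 8.78 in WT and at 9.22, 8.94 and 8.82 in Y147F (0.48 ± 0.14, adjusted p = 0.168), without overlap. Dio1, the deiodinase that activates and clears thyroid hormone, was at 4.49 to 5.06 in WT and at 4.46 to 4.63 in Y147F (-0.12 ± 0.28). These Dio1 levels lie near the 25th percentile of an array, 4.63 to 4.72, where a difference cannot be measured well.

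Lipogenic targets spread widely within the groups. Me1, the malic enzyme, differed by -0.40 ± 0.22, Fasn, the fatty acid synthase, by -0.26 ± 0.37, Acaca by -0.09 ± 0.28 and Thrsp, a lipogenic nuclear protein, by 0.16 ± 0.25. Among genes of glucose and fat use, G6pc differed by 0.31 ± 0.21, Pck1 by 0.29 ± 0.15, Cpt1a by 0.24 ± 0.12 and Ppargc1a by -0.12 ± 0.14. Slc16a10, a transporter of aromatic amino acids and thyroid hormone, differed by 0.15 ± 0.14. The transcription factors gave 0.16 ± 0.17 for Bcl3, 0.08 ± 0.13 for Srebf1, 0.02 ± 0.12 for Klf9, -0.10 ± 0.12 for Mlxipl and -0.10 ± 0.08 for Hr. Cyp7a1, which starts the conversion of cholesterol to bile acids, differed by 0.13 ± 0.43, and the hormone Fgf21 by -0.06 ± 0.22. The 95% interval reached from -1.03 to 0.51 for Fasn and from -0.20 to 0.51 for Bcl3, so changes within these intervals are not excluded.

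Set against the genotypes that lack TRβ or carry the GS changes, the same 18 genes gave other values. Against KO, 1476 genes were called (10.4%), and of the T3 targets 5 were lower in Y147F (4.46% of all genes were) and 1 higher (5.96%). Gpd2 had a mean of 9.96 in KO (-0.97 ± 0.14, adjusted p = 0.000185), Fgf21 was lower by 1.24 ± 0.22 (0.00132), Dio1 by 1.36 ± 0.28 (0.00398), Me1 by 0.97 ± 0.22 (0.00777) and Bcl3 by 0.87 ± 0.17 (0.00259). Ppargc1a, a coactivator of mitochondrial genes, was higher by 0.58 ± 0.14 (0.0131) and lost its call without Y147F PBS replicate 2. Against GS, 688 genes were called (4.86%), and of the T3 targets Gpd2, Bcl3, Me1 and Dio1 were lower in Y147F (2.29% of all genes were). These comparisons share the Y147F arrays with each other and with the comparison against WT. For Dio1, whose Y147F values are at background, the size is not a fold change.

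**Figure D3:**
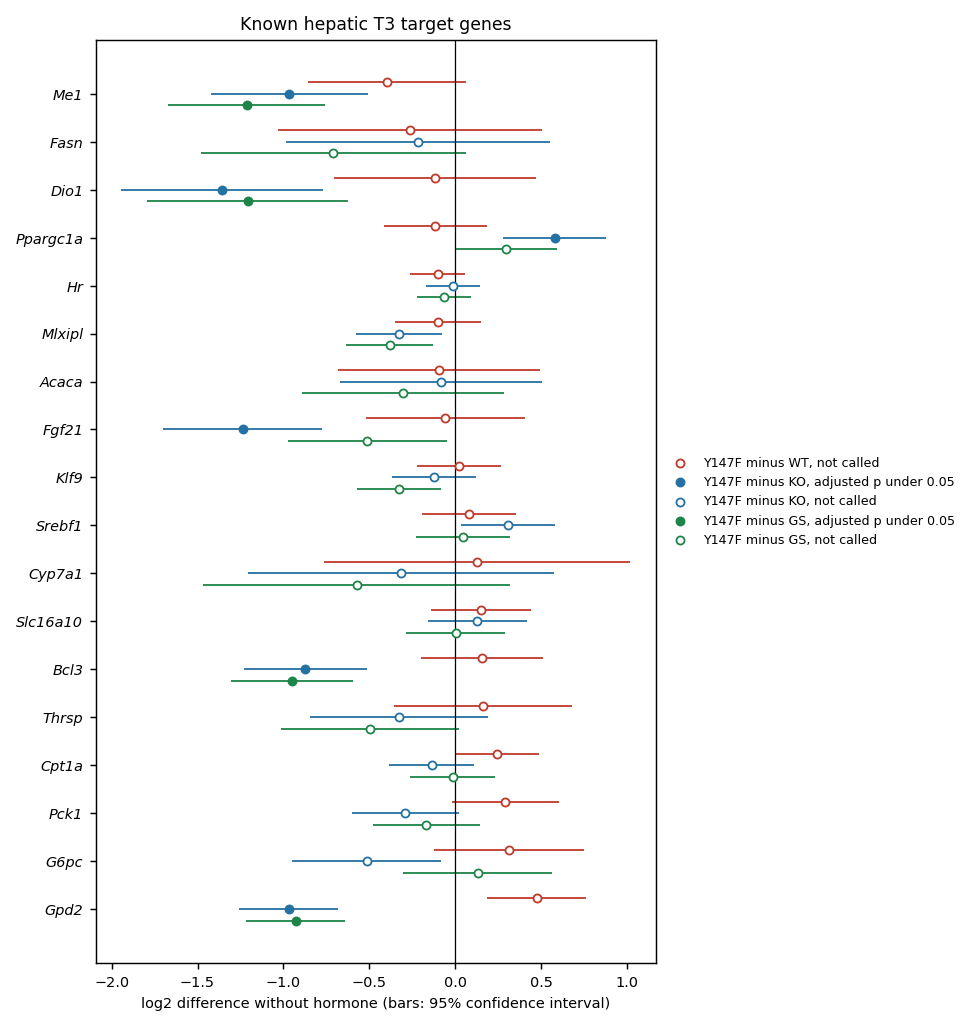
Difference of Y147F from WT (red), KO (blue) and GS (green) without hormone for the 18 hepatic T3 targets, ordered by the difference from WT. The x axis is the log2 difference, bars are 95% confidence intervals and filled points have an adjusted p under 0.05. No red point is filled, and Gpd2 lies at 0.48 from WT and at -0.97 and -0.93 from KO and GS.

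Genes of cholesterol synthesis had lower values in Y147F than in WT, with none called. Of 26 genes listed 21 were tested, and the others were not analysed here. The median difference was -0.41 against 0.01 over all genes, 19 of 21 were below 0, and 9 had an unadjusted p under 0.05, all lower (6.51% of all genes were). Averaged over the 21 genes, the WT arrays were at 10.92, 10.61 and 11.10 and the Y147F arrays at 10.50, 10.38 and 10.47. All 3 Y147F arrays lay below the lowest WT array, WT replicate 2. The median difference ranged from -0.62 to -0.28 over the other settings. After T3 it was -0.24, with 20 of 21 below 0. There 0 of 21 had an unadjusted p under 0.05 (8.43% of all genes did).

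Their transcripts are under common control in liver: sterol-sensing SREBP2 turns them on together with NF-Y, a factor that binds CCAAT boxes. To show what these promoters share, the 250 bases before the start were read from RefSeq windows on build GRCm38.p6, which hold 17 of the 21 genes. The letters CCAAT, on either strand, occurred in 17 of 17 genes and in 37.5% of all 27025 genes of the table. Counted by window, since a gene can have several, they occurred in 17 of 22 windows against 33.8% of all windows. TCACNCCAC, a sterol element written with N for any base, occurred in 1 of the 17 genes and in 1.22% of all genes. Shown are the 4 enzymes that have a window, an unadjusted p under 0.05 and groups apart, with matches to either in capitals, where ATTGG is CCAAT on the other strand. A match is a description of the letters, not a binding site.

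Hmgcs1, chr13:119690101-119690350 on the plus strand: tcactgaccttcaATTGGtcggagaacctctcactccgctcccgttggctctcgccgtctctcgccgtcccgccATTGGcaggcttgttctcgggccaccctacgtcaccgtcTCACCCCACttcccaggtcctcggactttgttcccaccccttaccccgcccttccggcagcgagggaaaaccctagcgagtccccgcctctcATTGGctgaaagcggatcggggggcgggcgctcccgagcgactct
Idi1, chr13:8885356-8885605 on the plus strand: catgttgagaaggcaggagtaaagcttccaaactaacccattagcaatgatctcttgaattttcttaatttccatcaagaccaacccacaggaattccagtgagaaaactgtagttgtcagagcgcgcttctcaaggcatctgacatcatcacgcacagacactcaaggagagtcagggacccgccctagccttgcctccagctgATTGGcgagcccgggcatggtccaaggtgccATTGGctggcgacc
Cyp51, chr5:4104698-4104947 on the minus strand: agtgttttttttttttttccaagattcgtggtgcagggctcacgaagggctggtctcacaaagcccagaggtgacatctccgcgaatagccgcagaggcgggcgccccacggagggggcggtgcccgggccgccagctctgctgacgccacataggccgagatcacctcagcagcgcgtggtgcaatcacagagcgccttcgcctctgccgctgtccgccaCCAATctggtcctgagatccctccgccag
Nsdhl, chrX:72918271-72918520 on the plus strand: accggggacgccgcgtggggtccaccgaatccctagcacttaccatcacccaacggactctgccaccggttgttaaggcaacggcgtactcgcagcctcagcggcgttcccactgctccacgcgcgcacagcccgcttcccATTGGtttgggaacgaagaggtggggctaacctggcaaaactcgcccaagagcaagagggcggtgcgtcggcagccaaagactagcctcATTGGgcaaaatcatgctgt

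The Hmgcs1 window holds 3 CCAAT matches and the only TCACNCCAC match of the list, Idi1 and Nsdhl hold 2 CCAAT matches each, and Cyp51 holds 1. These genes encode steps along the pathway, and none was called against WT. Hmgcs1, HMG-CoA synthase, was at 12.38, 12.22 and 12.49 in WT and at 11.80, 11.78 and 11.95 in Y147F (-0.52 ± 0.24). Idi1, which isomerises isopentenyl diphosphate, was at 11.23, 11.03 and 11.55 in WT and at 10.52, 10.27 and 10.53 in Y147F (-0.83 ± 0.29). For both genes the groups were apart. Cyp51, the lanosterol demethylase, differed by -0.60 ± 0.27 and Nsdhl, which acts after it, by -0.57 ± 0.24, also without overlap.

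Sqle, squalene epoxidase, which commits squalene to sterols, had the largest difference of the list. It was at 9.57, 9.36 and 10.46 in WT and at 8.69, 7.81 and 8.53 in Y147F (-1.45 ± 0.44, unadjusted p = 0.0037, adjusted p = 0.177). Mvd differed by -0.77 ± 0.32 and Fdps by -0.61 ± 0.28, both enzymes of the isoprenoid steps before squalene. The sterol sensors Insig2 and Insig1, which retain the SREBP proteins in the endoplasmic reticulum, differed by -0.51 ± 0.21 and -0.39 ± 0.18. Srebf2, the gene of SREBP2, gave 0.04 ± 0.08, Ebp 0.01 ± 0.07, Sc5d -0.03 ± 0.15, and Fdft1 and Stard4 both -0.10. Those were the members closest to the WT level.

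Some of the sterol genes were called against KO and GS. The list means were 10.74 to 11.28 in KO and 11.17 to 11.50 in GS, above all Y147F arrays. KO and GS themselves differed from WT by medians of 0.18 and 0.49, with 14 and 19 of the 21 genes above WT. The comparisons with KO and GS include these shifts. Of the 21 genes 8 were lower than in KO (4.46% of all genes were) and 12 lower than in GS (2.29%), and 0 were called higher. Sqle was 4.30-fold lower than in KO (-2.10 ± 0.44, adjusted p = 0.0043) and 6.39-fold lower than in GS (-2.68 ± 0.44, adjusted p = 0.00139). Idi1 was 2.29-fold and 3.12-fold lower, with -1.20 ± 0.29 (0.0104) and -1.64 ± 0.29 (0.00214). Leaving out 1 array left 2 to 8 called against KO, with 2 without KO PBS replicate 2, and 7 to 11 against GS. With only the arrays compared the numbers were 6 and 14.

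**Figure D4:**
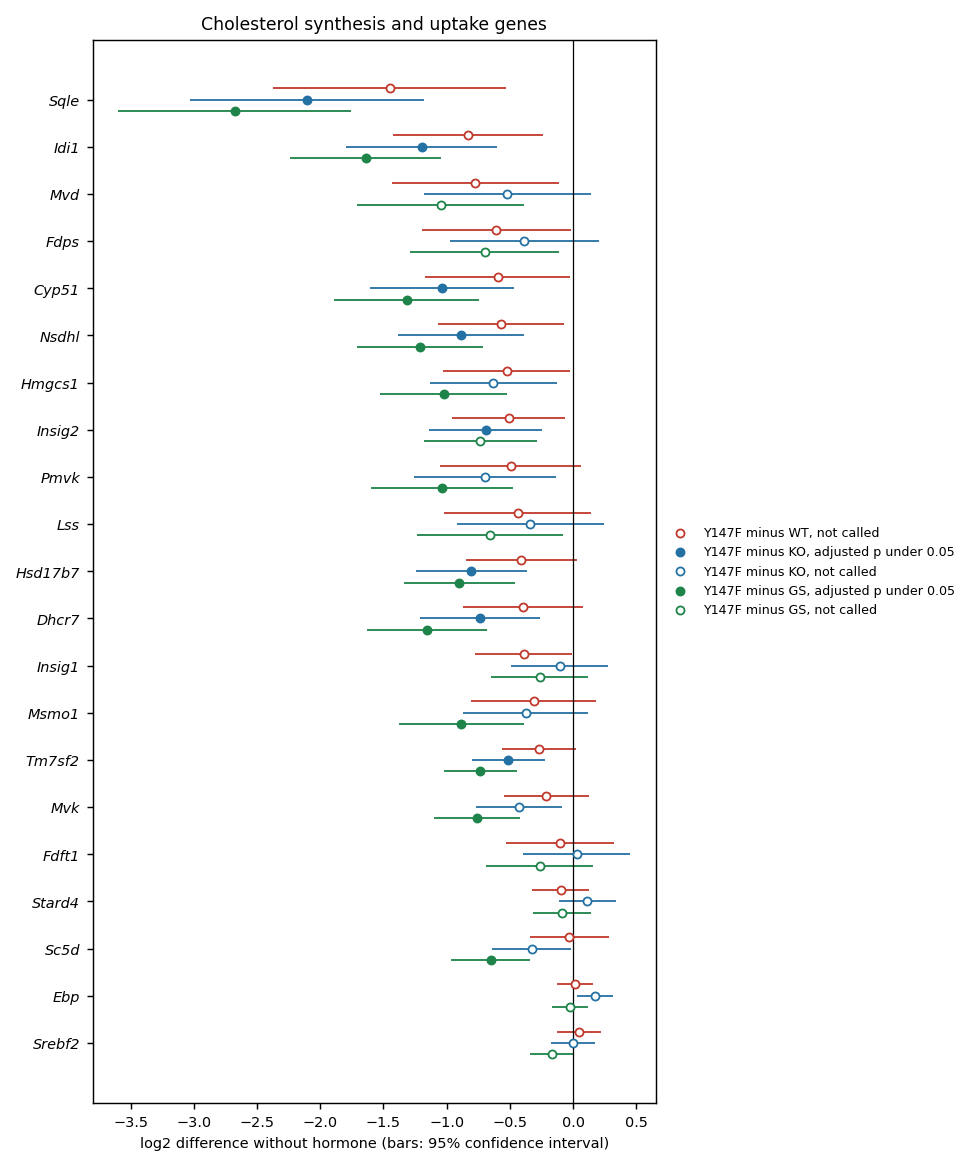
Difference of Y147F from WT (red), KO (blue) and GS (green) without hormone for the 21 genes of cholesterol synthesis and uptake, ordered by the difference from WT. The x axis is the log2 difference, bars are 95% confidence intervals and filled points have an adjusted p under 0.05. Red points are all open and mostly left of 0, and most green points lie further left, with Sqle at -2.68.

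Genes of the PI3K and FOXO pathway, the kinase route tied to the mutated tyrosine, held no called gene. Of 28 tested, 4 were higher and 1 lower at an unadjusted p under 0.05, against 7.3% and 6.51% of all genes. The median difference was 0.12 against 0.01 over all genes, and 22 of 28 were above 0. Whether the list differed as a whole was not tested. Those 5 are given as values only. Foxo1, a transcription factor that AKT keeps out of the nucleus, was at 9.30, 9.22 and 9.28 in WT and at 9.63, 9.75 and 9.64 in Y147F (0.41 ± 0.09, adjusted p = 0.0714). Its groups did not overlap. Pik3cb, a catalytic subunit of PI3K, differed by 0.31 ± 0.09, Akt2 by 0.22 ± 0.08, the insulin receptor Insr by 0.22 ± 0.09 and the kinase Gsk3b by -0.18 ± 0.07.

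Among genes just short of the threshold, Akr1c19, an aldo-keto reductase, was at 11.32, 10.63 and 10.65 in WT and at 12.31, 12.28 and 11.99 in Y147F (1.33 ± 0.26, adjusted p = 0.0595). Tpmt, the thiopurine methyltransferase, was at 10.96, 11.88 and 11.86 in WT and at 10.09, 9.91 and 9.85 in Y147F (-1.62 ± 0.34, adjusted p = 0.0644). Klf4, a transcription factor of the immediate early list, differed by 0.77 ± 0.15 (adjusted p = 0.0609). None of the 3 was called, though in each the groups were apart. Akr1c19 and Tpmt passed the threshold without WT PBS replicate 1, and Klf4 without Y147F PBS replicate 1.

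Other pathway lists held no called gene except Stat5b, in the growth hormone list. Over 31 pathway and 12 cell marker lists, 600 distinct genes were tested and 1 was called (0.0847% of all genes were). At an unadjusted p under 0.05, against 7.3% of all genes higher and 6.51% lower, 6 of 29 oxidative phosphorylation subunits were lower and 0 higher, among them Cox7a2 (-0.30 ± 0.08), Ndufa4 (-0.41 ± 0.11) and Cox6c (-0.24 ± 0.07). Of 12 heat shock genes 4 were higher and 1 lower, with Hspa8 at 0.32 ± 0.12 and Hspa1b at 0.75 ± 0.34. Of 25 interferon-stimulated genes 1 was higher and 0 lower. Of 26 genes of fatty acid oxidation 1 was higher, and of 19 of bile acid synthesis and export 1.

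Male-patterned liver genes, whose level depends on pulsed growth hormone, had 3 of 14 lower at an unadjusted p under 0.05 (6.51% of all genes were). Elovl3, a fatty acid elongase, was at 9.38, 9.88 and 10.27 in WT and at 8.10, 9.04 and 9.61 in Y147F (-0.93 ± 0.31, adjusted p = 0.198), with overlap. Cyp4a12a differed by -0.51 ± 0.18 and Ugt2b1 by -0.17 ± 0.06. Against KO 11 of the 14 were called, all lower in Y147F (4.46% of all genes were), with Slco1a1, an organic anion transporter, at -2.40 ± 0.39 and Elovl3 at -1.83 ± 0.31. Against GS 6 of 14 were called, again all lower (2.29% of all genes were). KO and GS themselves differed from WT by medians of 0.77 and 0.45, with 14 and 12 of the 14 genes above WT. The median of Y147F against WT was -0.15.

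Among the genes farthest from KO or GS, Erdr1 was called against WT, and those that follow were not. The lowest against KO were Mup10, a major urinary protein whose near-identical copies can share its probes, at -3.08 ± 0.44, and the pseudogene Serpina4-ps1 at -3.08 ± 0.36. Against WT these gave -0.69 ± 0.44 and -0.62 ± 0.36. Slc22a7, an organic anion transporter, was at 7.82, 6.82 and 7.25 in Y147F and at 7.74, 7.41 and 7.52 in WT, with -2.71 ± 0.25 against KO (adjusted p = 2.44e-06) and -2.85 ± 0.25 against GS (1.04e-06). Sult2a8, a sulfotransferase, gave -3.002 ± 0.33 and -2.92 ± 0.33, and -0.22 ± 0.33 against WT. In the other direction the metallothioneins Mt2 and Mt1, which bind zinc, were higher than in KO by 3.40 ± 0.54 and 3.13 ± 0.49, with 0.21 ± 0.54 and 0.12 ± 0.49 against WT. Serpinb1a, a protease inhibitor, gave 2.55 ± 0.24 against KO, 2.26 ± 0.24 against GS and 0.44 ± 0.24 against WT. Acot3, an acyl-CoA thioesterase, was 2.45 ± 0.45 higher than in KO, and Ppp1r3g, a glycogen-targeting phosphatase subunit, 2.70 ± 0.56 higher than in GS.

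A further 3 genes set the later submission apart from all 18 arrays of the first, by a rule chosen after their values were seen: at least 4 of 6 Y147F arrays more than 0.5 beyond the first submission's range. Nnt, the mitochondrial transhydrogenase, was at 11.69, 11.60 and 11.50 in Y147F with PBS and at 10.64, 10.82 and 10.53 in WT (0.93 ± 0.23, adjusted p = 0.132), with a first-submission range of 9.98 to 10.82. With T3 the Y147F arrays were at 10.52, 12.05 and 11.39, so 1 of 6 lay within that range. Other Nnt probe sets differed without hormone by 1.01 and, for a much dimmer one, by -0.09. The C57BL/6J strain is known for a deletion in Nnt, and the labels give C57BL/6JCrl for the Y147F mice; whether substrain sets the level was not tested.

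Wdfy1, which encodes a protein of endosomal membranes, was at 6.94, 8.91 and 8.99 in Y147F with PBS and at 7.21, 7.15 and 7.07 in WT (1.13 ± 0.31, adjusted p = 0.159). Replicate 1 of the Y147F PBS group was at the WT level and the other 5 Y147F arrays, with or without T3, were at 8.68 to 8.99. The adjusted p was 1.39e-10 without replicate 1, 0.277 without replicate 2 and 0.353 without replicate 3. Other Wdfy1 probe sets, each dimmer than the one tested, differed without hormone by 1.11, 1.03, 0.36 and -0.25. The remaining gene was Papss1, with a first-submission range of 9.27 to 9.70. Each of the 3 was also called against KO and GS without hormone. Nnt differed by 1.21 ± 0.23 and 1.00 ± 0.23. Wdfy1 differed by 1.01 ± 0.31 and 1.09 ± 0.31, with Y147F replicate 1 below all KO and GS arrays and the other replicates above them.

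**Figure D5:**
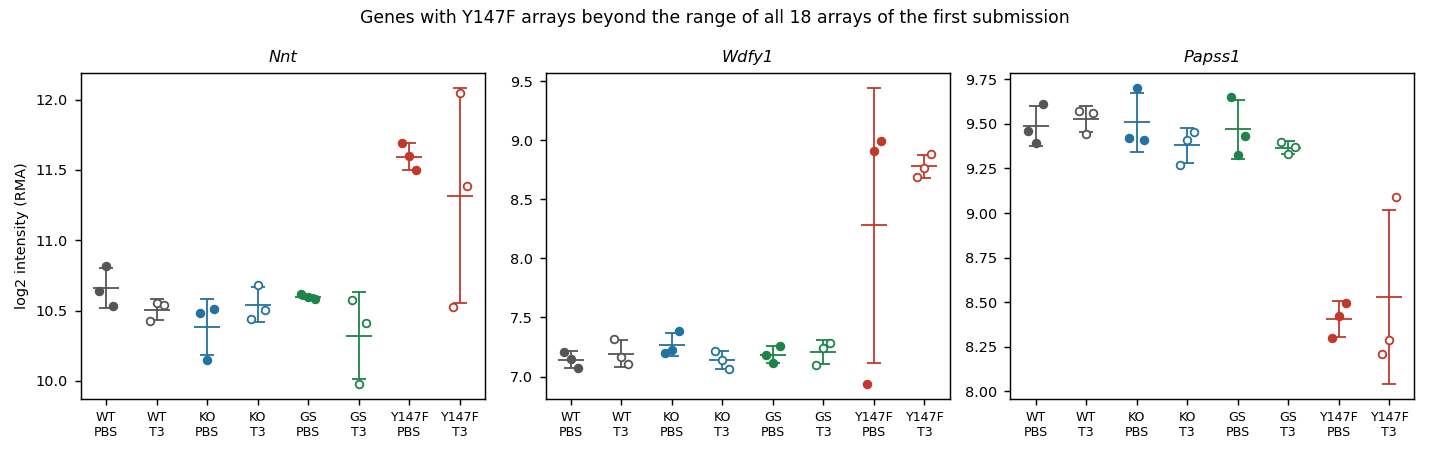
Log2 intensity (y axis) of Nnt, Wdfy1 and Papss1 in all 24 arrays, by genotype and treatment (PBS filled, T3 open). Points are arrays, and bars show the group mean ± SD. For Papss1 all 6 Y147F arrays lie below the other 18, for Nnt 5 of 6 lie above them, and for Wdfy1 5 of 6 lie above and 1 below.

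Over 12 lists of markers, of hepatocytes and other cells, 0 genes were called (0.0847% of all genes were). The mean of 2 lists lay apart between the groups, and of all single genes tested 17.7% did so. The 15 Kupffer cell and macrophage markers averaged 9.04 to 9.10 in WT and 8.84, 9.76 and 9.08 in Y147F, where replicate 2 was high. The 10 neutrophil and monocyte markers averaged 6.51, 6.68 and 6.69 in WT and 6.39, 6.42 and 6.22 in Y147F, apart. All 10 differences were below 0, with 2 at an unadjusted p under 0.05 (6.51% of all genes were lower at that p). The 9 lymphocyte markers averaged 6.18 to 6.28 in WT and 6.09 to 6.17 in Y147F, also apart. Both lists lay little above the array medians of 5.88 to 6.00. Y147F PBS replicate 3 was lowest in both, and its array median of 5.88 was the lowest among the WT and Y147F PBS arrays. The part of these markers in the differences reported was not tested.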

How the data were processed

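Liver RNA, 200 ng per array, was measured on Affymetrix arrays with 45101 probe sets. Per the submitters' processing notes the authors used RMA (version not given in the sources used here); the deposited values are log2 intensities per probe set. No source says whether both submissions were summarised together. In the 6 Y147F columns as deposited, values of another form stood in place of log2, having lost their decimal mark. The mark was put back so that values lie between 3 and 16, and 781 cells (0.289%) that a spreadsheet could have turned into dates were set missing. Taking the mark out of the 18 intact columns and putting it back gave 809299 cells restored right and 0 wrong, which checks the steps only.

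Of the probe sets, 34958 had 1 symbol, 932 several and 9211 none. Each of 18194 genes was read from its probe set with the highest mean, and 14161 that reached the 40th percentile of an array in at least 3 arrays were tested, 232 of them with a missing cell, where the fit drops that array. A group-means model in limma 3.58.1 (R 4.3.3) was fitted to all 24 arrays, with no covariate (residual degrees of freedom 16, prior 4.28). Tests were two-sided with Benjamini-Hochberg adjustment over all genes. An exact permutation test of 3 against 3 cannot give a p below 0.1, so none was used. Genes named were those called with groups apart, the hepatic T3 targets, Thrb and Thra, up to 4 members of a list with the smallest p, and up to 6 called genes each way by size in each other contrast. Nnt, Wdfy1, Akr1c19, Tpmt, Rpl22l1, Zfas1 and the further cholesterol and PI3K genes fall outside that rule and were chosen after their values were seen. Groups, members and gene lists were chosen with earlier results of these data known. The fit was also tested on simulated arrays, with 50 genes changed at each of several fold sizes. Alternatives were other normalizations, filters, fits, left-out arrays, a title-number covariate and a 2-fold threshold.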

Additional observations from a re-analysis of the deposited data

Results flagged for a closer look

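Probe sets without a single gene symbol entered no comparison in the report. Of 4118 such probe sets that passed the same filter, 6 were called between Y147F and WT without hormone, 1 higher and 5 lower, and 0 after T3. They were fitted and adjusted apart from the named genes and carry no gene name here. No group has the 4 or more arrays needed to look for a single array far from the others.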

How the results depend on the processing

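No paired analysis was possible because the number in each title differs and no groups share one. Against 12 genes called between Y147F and WT without hormone, 33 were called with array weights, 20 with a variance trend and robust moderation, 6 with each array centred on its median, 6 with no filter, 3 with quantile normalization, 2 with the 2-fold threshold, 1 with only the arrays compared, 1 with the title-number covariate and 0 with the 12 WT and Y147F arrays. It was 4 without both Y147F arrays numbered 3, a setting chosen after seeing the data. Leaving out 1 array gave 0 to 23, with 0 without WT PBS replicate 3 or Y147F PBS replicate 2 and 23 without Y147F PBS replicate 1. After T3 the 1 call became 93 with array weights, 4 without both arrays numbered 3, and 0 with the 12 arrays or the 2-fold threshold, and leaving out 1 array gave 0 to 1. The difference of the 2 differences, with 0 called, gave 1 without both arrays numbered 3 and 0 to 1 with 1 array left out. Against KO 471 were called with only the arrays compared and 933 to 1263 with 1 array left out, against 1476. Against GS these were 270 and 348 to 537, against 688. The cause was not tested. No called gene among the 12, the hepatic T3 targets and the cholesterol list changed direction under any of these settings. Direction was not checked for the other genes called against KO or GS. Values near background, such as those of Dio1, limit what can be measured; array files with detection calls were not used here.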

Other observations

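A pair of gene sets was put together after the differences were seen and has no test. Of 15 host genes of small nucleolar RNAs, which carry these RNAs in their introns, 15 were lower in Y147F than in WT without hormone, with a median of -0.23. Of these 8 had an unadjusted p under 0.05 (6.51% of all genes were lower at that p). Only 1, Snhg6, was called (0.0424% of all genes were called lower). After T3 11 of the 15 were lower, with a median of -0.11. KO and GS had medians of -0.30 and -0.30 against the same WT arrays. Of 43 ribosomal protein genes 34 were lower, with a median of -0.11. Of the 43, 15 had an unadjusted p under 0.05 (13.8% of all genes did) and 0 were called. Their medians against WT were -0.13 in KO and -0.23 in GS. The WT PBS arrays are shared by these 3 comparisons. Members of these sets just short of the threshold included Rpl22l1 (-0.90 ± 0.19) and Zfas1 (-0.65 ± 0.13), both with an adjusted p of 0.0611.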
